A study of Mus musculus with 6 samples.

Results

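The abundant long intergenic noncoding RNAs (lincRNAs) of mouse brown fat were the rows of the deposited count table that the GENCODE M21 annotation types as lincRNA and whose estimated count averaged at least 50 over the 6 libraries. They numbered 94 of 5465 lincRNA rows, of which 3087 had a count above 0 in some library, and of 54385 rows in all. They were chosen by their mean count over both genotypes, so their levels and ranks are a description and carry no test. The contrast of genotypes was not part of the rule. The libraries hold polyadenylated RNA of brown adipose tissue, 3 of ADCY3∆AT mice and 3 of wild-type (WT) mice, all C57BL/6N, aged 20 weeks and fed chow. ADCY3∆AT is the knockout of Adcy3-AT, a truncated adenylyl cyclase 3 that the title of the series links to cold. The WT genotype is labelled wt/wt. The labels do not say how the allele was made, in which cells it acts or whether each library is a separate mouse, so p-values here measure only library-to-library spread, which may partly be technical. The sample labels place the tissue between the shoulder blades, whereas the series' design text has inguinal.

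A lincRNA is a long transcript without a protein product, made from its own locus between coding genes, usually by RNA polymerase II and often spliced and polyadenylated. Several act as scaffolds or decoys: Neat1 holds nuclear paraspeckles together, Malat1 collects at nuclear speckles that store splicing factors, Norad binds Pumilio proteins in the cytoplasm, and Cyrano leads to the decay of the microRNA miR-7. Others are mainly known as host genes of small nucleolar RNAs, as imprinted transcripts (Meg3), or as RNAs enriched in brown adipocytes (Lncbate1). Of the 94, 48 carried only a predicted (Gm) or clone (AC) symbol, which does not tell whether a role is known.

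Library totals ran from 14799779 to 19592156 estimated counts in ADCY3∆AT and from 13758492 to 17489589 in WT. Adcy3 itself differed by a log2 fold change of -0.05 (adjusted p = 0.894 by edgeR), while ENSMUSG66666620654, an added row with no symbol whose identifier ends in the digits of Adcy3's, had 22.7, 0 and 0 counts in ADCY3∆AT and 3286, 2665 and 2092 in WT. Brown adipocyte markers were high in every library, with summed levels of 14611 to 15237 CPM in ADCY3∆AT and 16220 to 16714 CPM in WT (CPM, counts scaled to library size with trimmed mean of M-values factors). The summed level of 12 skeletal muscle markers was 2.93, 1.79 and 1.42 CPM in ADCY3∆AT and 23.2, 113 and 680 CPM in WT, and 1 of the 12 was at 0 in all 3 ADCY3∆AT libraries. Of 9 muscle markers tested, edgeR called 7 lower, DESeq2 called 9 and limma-voom 0. Of the 6 mural markers, edgeR called 1, lower. edgeR called 0 on each of the lists for brown adipocytes, endothelium, fibroblasts and matrix, nerve and Schwann cells, macrophages, lymphocytes and erythroid cells. On these lists 1, 3, 1, 4, 0, 0 and 0 genes had an unadjusted p under 0.05, DESeq2 called 1 brown adipocyte marker and 0 others, and limma-voom called 0.

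The lincRNA fraction was dominated by a pair of neighbouring nuclear RNAs on chromosome 19. The 94 members took 0.626%, 0.644% and 0.550% of all counts in ADCY3∆AT and 0.599%, 0.564% and 0.538% in WT. Neat1 and Malat1 alone gave 66.0% of the members' counts, and the top 5 gave 80.2%. The genotypes overlapped in this share. They did not overlap once Neat1 and Malat1 were taken out, when the share was 0.215%, 0.202% and 0.206% in ADCY3∆AT and 0.195%, 0.181% and 0.189% in WT. This share is a sum in which single genes weigh heavily. AC160336.1 alone, which was not called, averaged 592 CPM in ADCY3∆AT and 493 CPM in WT. Log2 fold changes were above 0 in 51 of the 94 members. By count, Neat1 ranked 43 and Malat1 58 of 54385 rows, and the last member ranked 10717.

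Per length of exon, Malat1 was the most abundant, at 247 CPM per kb over all libraries, rank 172 among the genes tested. The levels are those of polyadenylated RNA, so transcripts without a poly(A) tail cannot be judged from them. Neat1, whose merged exons are far longer, followed at 104 CPM per kb (rank 380). The predicted genes Gm44386 (59.8 CPM per kb) and Gm20186 (48.3) and Tmem250-ps, named as a pseudogene, (47.4) came next, ahead of Gm12840 (40.0), Gm48942 (34.2), Gm29408 (32.2), Gm10032 (30.4), 2900097C17Rik (29.5), AC153155.2 (25.5) and Lncbate1 (22.9). Beyond these levels fell quickly: 21 members reached 10 CPM per kb and 7 were under 1. AC160336.1, the third member by count, shows what the scale changes. Its annotated gene is 1 exon of 93147 bases that runs across several other genes, so that it ranked 32 of 94 per kb. Meg3, which holds 18089 bases of merged exon, ranked 11 by count and 70 per kb.

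**Figure D1:**
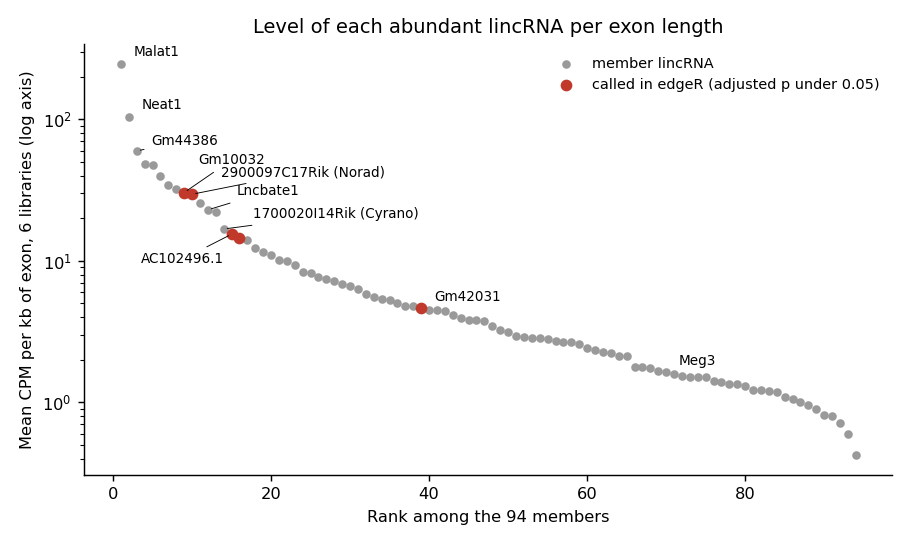
Mean level over the 6 libraries of each of the 94 members in CPM per kb of merged exon (log axis), ordered by that level, with the 5 called members in red. Malat1 and Neat1 stand above 100, and the called members lie between 4.63 (Gm42031) and 30.4 (Gm10032).

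Between the genotypes, 5 members were higher in ADCY3∆AT and 0 lower at a Benjamini-Hochberg adjusted p under 0.05 over all 14332 genes tested (edgeR quasi-likelihood F test). That is 5.32% of the members, beside 4.30% of all genes tested, of which 2.63% were called higher and 1.67% lower, and beside 5.40% of the genes with a mean count of at least 50. The members as a set were therefore called about as often as other genes. For the direction lower, 10 members had an unadjusted p under 0.05, DESeq2 called 2 and limma-voom 0. In all, 25 members (26.6%) had an unadjusted p under 0.05, beside 22.6% of all genes tested. In 32 members (34.04%) the libraries of the genotypes did not overlap, beside 29.1% of all genes tested. Among tested genes with a mean count of at least 50, the unadjusted and non-overlap shares were 26.1% and 32.5%, close to those of the members. Log2 fold changes (ADCY3∆AT minus WT) were above 0 for 51 members, with a median of 0.04 against -0.01 over all genes tested. The calls were few and uneven: without each library in turn 2 to 3 members were called, AC102496.1 and AC158975.2 every time, Gm42031 in 3 of 6 fits, and Gm10032 and 2900097C17Rik in 0.

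**Figure D2:**
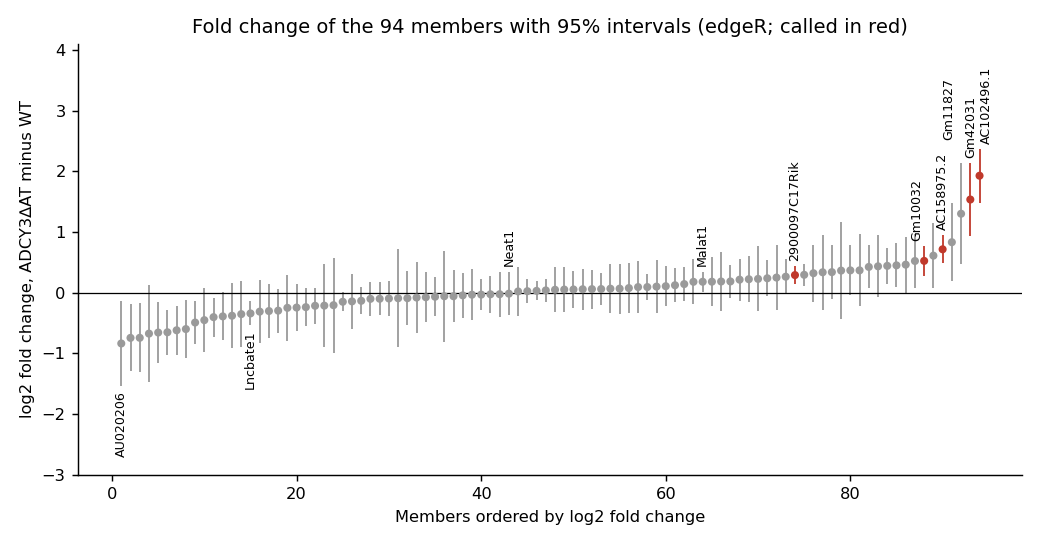
Log2 fold change (ADCY3∆AT minus WT) of the 94 members in rising order, with 95% intervals from edgeR and the 5 called members in red. Most members lie near 0, and the called ones run from 0.29 (2900097C17Rik) to 1.93 (AC102496.1).

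The largest difference was in AC102496.1, a gene of 2 exons on chromosome 18 (GRCm38, 30267249 to 30272133, plus strand) with only a clone symbol. It had 33.4, 25.8 and 27.5 CPM in ADCY3∆AT libraries and 10.2, 6.25 and 6.29 CPM in WT libraries. The lowest ADCY3∆AT library held more than 2 times the highest WT library. The log2 fold change was 1.93 (standard error 0.19, adjusted p = 0.00339 by edgeR), or 3.81-fold. The two-sided exact permutation p was 0.1, the smallest that 3 against 3 libraries can give.

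AC158975.2, also on chromosome 18 (82694287 to 82701336, plus strand), had 36.3, 29.1 and 35.4 CPM in ADCY3∆AT and 21.1, 20.1 and 20.3 CPM in WT. The WT libraries were nearly equal, and every ADCY3∆AT library lay above them. Its log2 fold change was 0.72 (standard error 0.10, adjusted p = 0.00965 by edgeR). Gm42031, on chromosome 8 (85125872 to 85132289, minus strand), had 12.96, 9.54 and 16.5 CPM in ADCY3∆AT and 4.34, 3.13 and 5.91 CPM in WT. It varied more within each genotype but did not overlap between them (log2 fold change 1.54, SE 0.26, adjusted p = 0.0204 by edgeR). Its call was lost without ADCY3∆AT library 3, WT library 1 or WT library 2, with log2 fold changes from 1.33 to 1.81 over the 6 fits and an adjusted p of up to 0.0908.

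These 3 genes were not independent in sequence. Of the 31-base words of their transcripts, 57.9% (AC102496.1), 90.2% (AC158975.2) and 74.2% (Gm42031) also occurred in transcripts of other genes, so that short reads could not always be placed. The main partner of AC158975.2 was Gm42427, a gene of unclear type on chromosome 5, which held 89.2% of its words and 41.2% of those of AC102496.1. Gm43305, a processed transcript on chromosome 14, held 53.8% of the words of Gm42031, and Gm42031 and AC102496.1 shared words with each other as well (14.3% and 16.5%).

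The partners differed between the genotypes in the same direction. Gm42427 had 92.9, 79.1 and 80.9 CPM in ADCY3∆AT and 52.7, 42.2 and 40.6 CPM in WT (log2 fold change 0.90, adjusted p = 0.00685 by edgeR). Gm43305 had 102, 103 and 90.1 CPM in ADCY3∆AT and 49.4, 56.8 and 42.2 CPM in WT (log2 fold change 0.99, adjusted p = 0.00508 by edgeR). Both were chosen for display after the sharing was seen, and neither overlapped between the genotypes. The sources used here do not say how shared reads were divided among the 5 genes, so which of these or the other sharing genes carried the difference cannot be told apart. Summed to 1 row before the fit, an alternative chosen after seeing the data, the 5 genes had 278, 247 and 251 CPM in ADCY3∆AT and 138, 129 and 115 CPM in WT. The sum was about doubled, with a log2 fold change of 1.02 (standard error 0.09, adjusted p = 0.00151 by edgeR), and it was called in each of the 6 fits without 1 library, at 0.96 to 1.09. Another 14 genes in the table each held at least 10% of the words of 1 or more of the 3 members, of which 13 were tested, 6 were called higher, 0 lower, and 7 were not called. The called ones besides Gm42427 and Gm43305 were Gm46223 (2.62), Gm42429 (0.93), Cep85 (0.65) and AI506816 (0.63). Those not called ran from -0.47 (Miga1) to 0.44: Gm4316, a member on chromosome 8 that holds 27.3% of the words of AC102496.1, reached a log2 fold change of 0.44 (adjusted p = 0.0913 by edgeR), and Chd9, a coding gene that holds 21.01% of the words of Gm42031, had -0.13 (adjusted p = 0.432 by edgeR).

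Over all members, 15 shared at least 50% of their words with other genes, 22 shared 10% to 50%, and 57 shared less than 10%. The 3 groups held 3, 1 and 1 of the called members. Log2 fold changes were above 0 in 12 of the 15, with a median of 0.34, in 11 of the 22 (median -0.02) and in 28 of the 57 (median -0.01). Some of the 15 share sequence with each other or with the same other gene, and those are not separate observations.

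**Figure D3:**
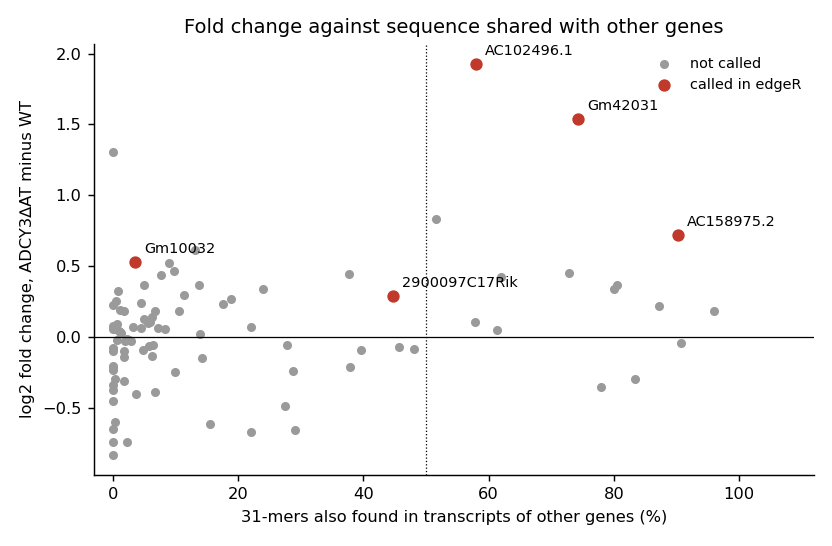
Share of each member's 31-base words that also occur in transcripts of other genes (horizontal, %) against its log2 fold change (vertical, ADCY3∆AT minus WT), with the called members in red and a dotted line at 50%. AC102496.1, Gm42031 and AC158975.2 lie to the right of the line and Gm10032 and 2900097C17Rik to its left.

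Gm10032 was the one called member that shared little sequence (3.6% of its words). It has 2 exons on chromosome 14 (66784480 to 66793758, plus strand), 9106 bases from Dpysl2, and carries only a predicted symbol. It had 80.0, 74.7 and 87.5 CPM in ADCY3∆AT and 59.5, 47.8 and 60.9 CPM in WT. The genotypes did not overlap, and the log2 fold change was 0.53 (standard error 0.11, adjusted p = 0.0357 by edgeR). Each fit without 1 library lost the call, with log2 fold changes from 0.43 to 0.59, as did upper-quartile scaling, at 0.49.

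The RefSeq table gives Norad as another name of 2900097C17Rik, the fourth member by count. Norad is a cytoplasmic RNA known for binding the Pumilio proteins, which repress messenger RNAs that carry a short recognition motif. Mouse 2900097C17Rik is 1 exon of 4915 bases on chromosome 2 (156388065 to 156392979, minus strand). It had 161, 157 and 161 CPM in ADCY3∆AT and 126, 137 and 129 CPM in WT. The 3 ADCY3∆AT libraries lay within 4 CPM of each other, above all of WT. The log2 fold change of 0.29 (standard error 0.06, adjusted p = 0.0415 by edgeR) was the smallest among the called members, at 1.22-fold. The call was lost in each fit without 1 library (0.27 to 0.33), with upper-quartile scaling (0.25) and with the replicate number as a block. Gm7292, a lincRNA on chromosome 6 that holds 43.9% of its words, had at most 0.0808 CPM in any library.

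The Pumilio motif, written TGTANATA in DNA letters and searched on the transcript strand, occurred 11 times in 2900097C17Rik, or 2.24 times per kb, against 0.144 per kb over the longest transcripts of all members. It occurred in 30 of the 94 members, and 3 had at least 3 matches. The window with the 2 closest matches (chr2:156390502-156390558, GRCm38, minus strand, bases 2422 to 2478 of the transcript) is shown because Pumilio binding is what this called RNA is known for, with the matches in capitals.
2900097C17Rik: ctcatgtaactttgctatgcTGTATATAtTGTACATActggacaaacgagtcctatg

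**Figure D4:**
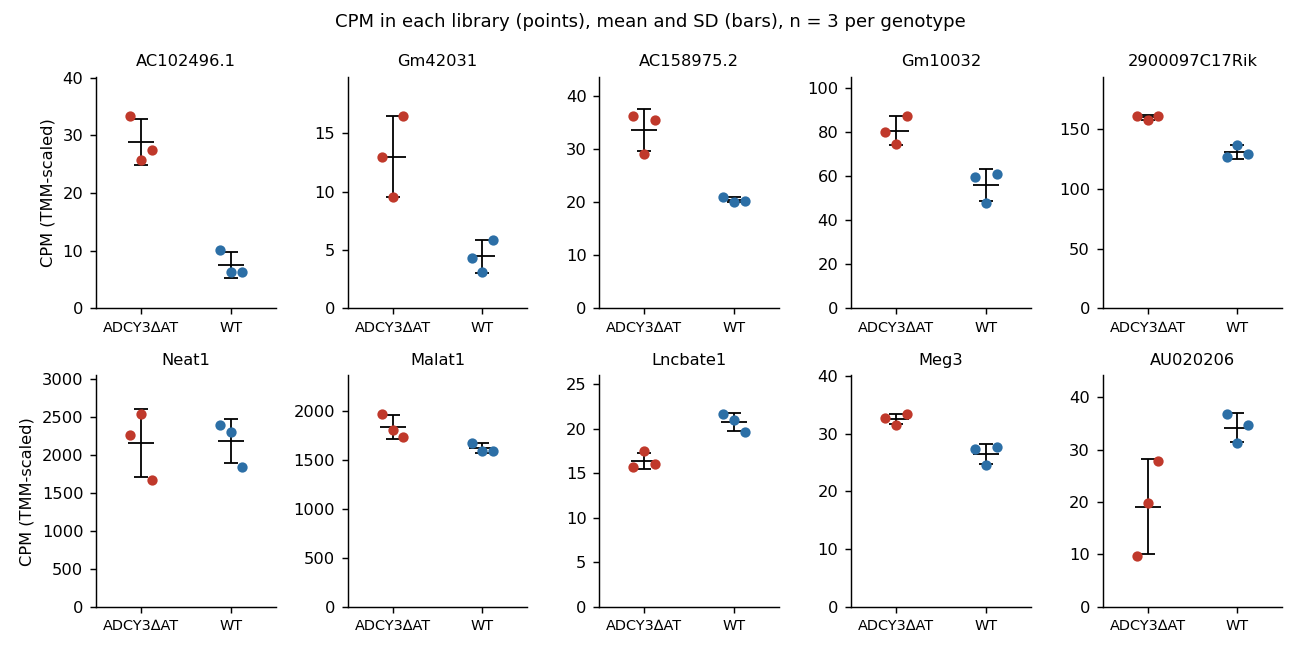
CPM in each library (points) with the mean and SD (bars), n = 3 per genotype, for the 5 called members (top) and 5 others of the set (bottom). In the top row every ADCY3∆AT point lies above every WT point, while the ranges of Neat1 overlap.

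Neither Neat1, of the paraspeckles, nor Malat1, of the nuclear speckles, was called. The counts are per gene and of polyadenylated RNA, so the different transcripts of Neat1 were not told apart. Neat1 had 2264, 2540 and 1671 CPM in ADCY3∆AT and 2391, 2302 and 1849 CPM in WT. Library 3 of each genotype was the lowest, and the ranges overlapped almost fully (log2 fold change -0.01, 95% interval -0.37 to 0.35, adjusted p = 0.970 by edgeR). Malat1 had 1969, 1804 and 1733 CPM in ADCY3∆AT and 1677, 1589 and 1590 CPM in WT. The genotypes did not overlap, but the difference was small and missed the threshold (log2 fold change 0.18, 95% interval 0.02 to 0.34, adjusted p = 0.183 by edgeR). On the list of nuclear and X-linked scaffolds, 5 of 8 genes were tested and edgeR called 0, with 1 at an unadjusted p under 0.05 (Malat1) and 0 called by DESeq2 or limma-voom. Xist and Tsix had at most 1.05 counts in any library and 0 in several.

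Paraspeckle proteins bind Neat1 and are splicing and RNA-binding factors. All 14 on the list were tested: 3 rose, 0 fell, and the median log2 fold change was 0.13 against -0.01 over all genes tested. Srsf10, a splicing regulator, averaged 67.4 ± 5.22 CPM in ADCY3∆AT and 45.5 ± 5.38 CPM in WT (SD, n = 3 each), with a log2 fold change of 0.57 (adjusted p = 0.0250 by edgeR). Rbm14, which helps to assemble paraspeckles, averaged 28.1 ± 0.479 CPM in ADCY3∆AT and 19.2 ± 1.90 CPM in WT (log2 fold change 0.55, adjusted p = 0.0178 by edgeR). Dazap1, an RNA-binding protein, averaged 75.0 ± 10.6 CPM in ADCY3∆AT and 53.4 ± 2.97 CPM in WT (log2 fold change 0.49, adjusted p = 0.0446 by edgeR). The 3 calls were made in 2, 3 and 1 of the 6 fits without 1 library. The core proteins Sfpq (0.05), Nono (0.12) and Pspc1 (-0.64, adjusted p = 0.178 by edgeR) were not called. Of the 14, 8 had an unadjusted p under 0.05 in edgeR, 6 of them higher and 2 lower.

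Cyrano, listed as 1700020I14Rik (chromosome 2, 119594297 to 119607502, plus strand), is known in mouse for a site that pairs almost fully with miR-7 and leads to its decay. It had 137, 145 and 141 CPM in ADCY3∆AT and 146, 137 and 130 CPM in WT. The ranges overlapped, and the interval of the log2 fold change (0.03, 95% interval -0.12 to 0.19) was among the narrowest of the named members (adjusted p = 0.830 by edgeR). The site and the RefSeq microRNA (GRCm38) are shown because this pairing is the known function of the RNA. In the site (chr2:119602137-119602161, GRCm38, plus strand) capitals mark bases that pair with the microRNA, 21 of its 23, and in the microRNA capitals mark the seed, bases 2 to 8.
1700020I14Rik site: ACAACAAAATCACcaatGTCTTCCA
mmu-miR-7a-5p: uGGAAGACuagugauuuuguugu
The seed match GTCTTCC alone is common: 26 of the 94 members (27.7%) held it. On the list of growth and stress lincRNAs, 7 genes were tested and 1 rose, 2900097C17Rik, with a median log2 fold change of 0.24, and Tug1, a nuclear RNA that is not a member, had 0.29 (adjusted p = 0.0658 by edgeR).

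Imprinted and host transcripts gave few calls. Meg3, the maternally expressed RNA of an imprinted cluster on chromosome 12 (109541001 to 109571726, plus strand), had 32.7, 31.5 and 33.4 CPM in ADCY3∆AT and 27.3, 24.5 and 27.7 CPM in WT. The genotypes did not overlap, but the difference missed the threshold (log2 fold change 0.30, SE 0.08, adjusted p = 0.0763 by edgeR). Its neighbours in the cluster, Rian and Mirg, which are not members, had log2 fold changes of 0.40 and 0.89 and were not called either. Other imprinted RNAs lay lower in ADCY3∆AT: H19 stood at -1.65 (adjusted p = 0.0504 by edgeR), Snhg14 at -0.68 and Kcnq1ot1 at -0.31, each with no overlap between the genotypes. Of 8 imprinted noncoding RNAs tested, edgeR called 0, limma-voom 0 and DESeq2 1, lower, and 5 had an unadjusted p under 0.05, 2 of them higher and 3 lower. Of 13 host genes of small nucleolar RNAs tested, edgeR called 0, with 1 at an unadjusted p under 0.05 and 0 called by DESeq2 or limma-voom. The members among them were close to 0: Snhg20, Snhg12 and Snhg6 had log2 fold changes of -0.06, 0.02 and 0.05. Of 4 microRNA host genes tested, 1 fell, Mir22hg (not a member), with 37.8, 39.0 and 26.7 CPM in ADCY3∆AT and 60.8, 50.9 and 63.7 CPM in WT (log2 fold change -0.76, adjusted p = 0.0327 by edgeR).

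A promoter of Meg3 (RefSeq, GRCm38.p6, chr12:109540746-109541045, plus strand, 300 bases around its start) is shown. It was 1 of 3 member promoters with a full cyclic AMP response element, TGACGTCA, given in capitals. The other capitals, TTATATAA, match the pattern TTANNTAA and also hold the letters of a TATA box, TATAA. Adenylyl cyclases make cyclic AMP, and this element binds the factor CREB.
Meg3 promoter: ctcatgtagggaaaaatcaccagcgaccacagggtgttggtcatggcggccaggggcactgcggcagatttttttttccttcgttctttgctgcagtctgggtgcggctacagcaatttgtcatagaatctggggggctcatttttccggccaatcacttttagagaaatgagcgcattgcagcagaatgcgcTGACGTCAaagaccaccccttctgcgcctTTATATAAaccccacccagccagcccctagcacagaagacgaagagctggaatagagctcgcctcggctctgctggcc
RefSeq promoters at the locus were matched for 40 of the 94 members, and motifs were searched on both strands. TGACGTCA stood in a promoter of 3 of the 40 (7.5%; Meg3, C030037D09Rik and 1300002E11Rik) and in 1.79% of all 32851 promoters of that length. A member with several promoters counted if any of them matched, whereas the share of all promoters is per promoter. Another RefSeq promoter of Meg3 (chr12:109545148-109545447) held no match. The log2 fold changes of C030037D09Rik and 1300002E11Rik were 0.05 and -0.07. The shorter core TGACG, which every full element contains, stood in 13 of the 40 (32.5%) and in 20.8% of all promoters. The E-box CACGTG stood in 4 of the 40 (7.15% of all promoters), the heat shock motif GAANNTTC in 4 (7.86%) and TTANNTAA in 3 (6.00%). Gm42031, the one called member with a promoter in the table, held none of these letters, and 61.5% of its promoter's 31-base words also occurred in the promoter of Gm43305.

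Lncbate1, a lincRNA known for its enrichment in brown fat and its need in brown adipocyte formation, had 15.7, 17.5 and 16.1 CPM in ADCY3∆AT and 21.7, 20.97 and 19.7 CPM in WT. Every ADCY3∆AT library lay below every WT library, at a log2 fold change of -0.34 (standard error 0.09, adjusted p = 0.0660 by edgeR). Its gene on chromosome 8 (108553252 to 108584595, minus strand) lies within that of the coding gene Zfhx3 on the opposite strand. Besides Meg3, the other members with an adjusted p between 0.05 and 0.10, named after their values were seen, were Gm30918 (-0.65), Gm28874 (-0.62), Gm4316 (0.44) and Gm11827 (1.30).

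Gm11827 had 12.5, 6.44 and 5.26 CPM in ADCY3∆AT and 4.57, 2.59 and 2.65 CPM in WT. Library 1 of ADCY3∆AT held about 2 times the other libraries of its genotype, and the log2 fold change of 1.30 (standard error 0.37, adjusted p = 0.0854 by edgeR) ran from 0.84 to 1.62 over the fits without 1 library. Its nearest coding gene, Trp53inp1 (a stress-induced target of p53), lies 29433 bases away on the same strand and was called. Trp53inp1 had 134, 98.6 and 64.1 CPM in ADCY3∆AT and 26.3, 21.3 and 18.01 CPM in WT (log2 fold change 2.18, adjusted p = 0.00589 by edgeR). The order of the ADCY3∆AT libraries was the same in both genes, while the order of the WT libraries differed.

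Some members that were not called differed widely inside a genotype. AU020206, on chromosome 7, had 9.69, 19.9 and 27.9 CPM in ADCY3∆AT and 36.8, 31.2 and 34.7 CPM in WT. It held the lowest log2 fold change of the set, -0.84 (standard error 0.30, adjusted p = 0.154 by edgeR), and ran from -1.22 to -0.50 over the fits without 1 library. 4930533N22Rik, also on chromosome 7, had 24.6, 22.3 and 21.2 CPM in ADCY3∆AT and 27.6, 27.7 and 40.1 CPM in WT (log2 fold change -0.49, adjusted p = 0.108 by edgeR). Its highest library, WT library 3, was also the one with 680 CPM of skeletal muscle markers, and the part of muscle RNA in this value was not tested. Bvht, known in mouse for cardiac commitment, had 3.47, 3.27 and 2.28 CPM in ADCY3∆AT and 4.83, 4.36 and 4.40 CPM in WT (log2 fold change -0.60, adjusted p = 0.139 by edgeR). Over all members the coefficient of variation between libraries had a median of 13.5% in ADCY3∆AT and 13.2% in WT.

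A second group of members shared sequence with one gene. Gm20186 (chromosome 6), Gm12840 (chromosome 4) and Gm29408 (chromosome 9) had 80.5%, 62.0% and 51.6% of their words in other genes, chiefly in the lincRNA Gm26809. The values of Gm26809 are not given here. Exons of Gm26809 on the opposite strand covered 81.4% of the exon bases of Gm20186, while exons of Gm12840 overlapped no other gene. Gm20186 had 62.5, 55.2 and 53.7 CPM in ADCY3∆AT and 53.4, 48.7 and 30.9 CPM in WT. Gm12840 had 29.8, 29.96 and 26.4 CPM in ADCY3∆AT and 25.8, 22.2 and 16.3 CPM in WT. Gm29408 had 10.8, 9.53 and 6.32 CPM in ADCY3∆AT and 5.94, 5.99 and 3.17 CPM in WT. In all 3 genes library 3 was the lowest of each genotype and every ADCY3∆AT library lay above WT, with log2 fold changes of 0.37, 0.43 and 0.83 (adjusted p = 0.270, 0.153 and 0.132 by edgeR). On chromosome 5, AI480526 overlaps Gm38102 and 4932422M17Rik on the opposite strand, and without known strand their reads cannot be told apart. Gm38102 differed by 0.45 in log2 (adjusted p = 0.140 by edgeR), 4932422M17Rik 0.11 and AI480526 0.05. Summed to 1 row, an alternative chosen after seeing the data, they averaged 48.5 ± 5.65 CPM in ADCY3∆AT and 43.0 ± 8.10 CPM in WT (SD, n = 3 each), at 0.17 (standard error 0.14, adjusted p = 0.508 by edgeR).

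The remaining highly expressed members were not called. Gm44386 had a log2 fold change of -0.13 (95% interval -0.35 to 0.09), Tmem250-ps -0.15 (-0.31 to 0.01), AC153155.2 -0.14 (-0.60 to 0.31), Gm48942 0.34 (-0.10 to 0.78) and AC160336.1 0.26 (-0.02 to 0.55). The libraries of AC160336.1 did not overlap between the genotypes. Without a filter on low counts, Gm48942 (adjusted p = 0.0205 by edgeR) and AC160336.1 (adjusted p = 0.0167 by edgeR) were called. That fit called 1951 genes in all, against 616 in the main fit. The intervals leave room for differences of the size seen in Gm10032 only for Gm48942 and AC160336.1 upward and AC153155.2 downward.

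The members lay on 18 chromosomes, 11 of them on chromosome 5 and 0 on X or Y. Their merged exons had a median length of 2442.5 bases, 21 had 1 exon only, and 46 had 2 at most. Exons of 26 members overlapped those of another gene, so that reads of either could enter the count, and 60 had no whole-number count in any library (tolerance 5e-04). Around them, 14 had a coding gene on the opposite strand that started within 2 kb and faced away, 11 lay inside or across a coding gene, and 11 lay more than 100 kb from one.

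Nearest coding genes were tested in 71 pairs with 70 coding genes, of which 5 were called: Trp53inp1, Rhof, Gas1, Ick and Akap13. The share called was 4.30% over all genes tested and 5.39% over coding genes with a mean count of at least 50. None of the 5 was next to a called member. Next to the called members lay Pik3c3 (a kinase of autophagy and endosomes, 0.24), Zfp236 (0.31) and Zfp791 (0.26), both zinc finger genes, Dpysl2 (a cytoskeletal regulator, 0.08) and Cnbd2 (0.33). edgeR, DESeq2 and limma-voom called 0 of these 5, and 0 had an unadjusted p under 0.05 in edgeR. Rhof, a small GTPase whose start faces away from that of Gm38102 at 1247 bases, had 4.09 ± 0.221 CPM in ADCY3∆AT and 8.70 ± 1.00 CPM in WT (SD, n = 3 each), at -1.09 (adjusted p = 0.00884 by edgeR), while Gm38102 had 0.45. Akap13, an anchor of protein kinase A, was called at 0.63 (adjusted p = 0.0435 by edgeR) beside AU020206 with -0.84. Ick was called at 0.42 (adjusted p = 0.0412 by edgeR) beside C920006O11Rik with -0.24. Gas1, whose gene overlaps that of Gm48488 on the opposite strand, was called at 1.10 (adjusted p = 0.0148 by edgeR), and Gm48488 had 0.61. Across the 71 pairs, which share libraries, Pearson's r between the log2 fold changes of member and neighbour was 0.16 and Spearman's rho 0.01, and 37 pairs had the same sign. Across the 14 pairs with starts facing away, r was -0.46 and rho -0.35, 7 pairs had the same sign, and Rhof with Gm38102 was among them.

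**Figure D5:**
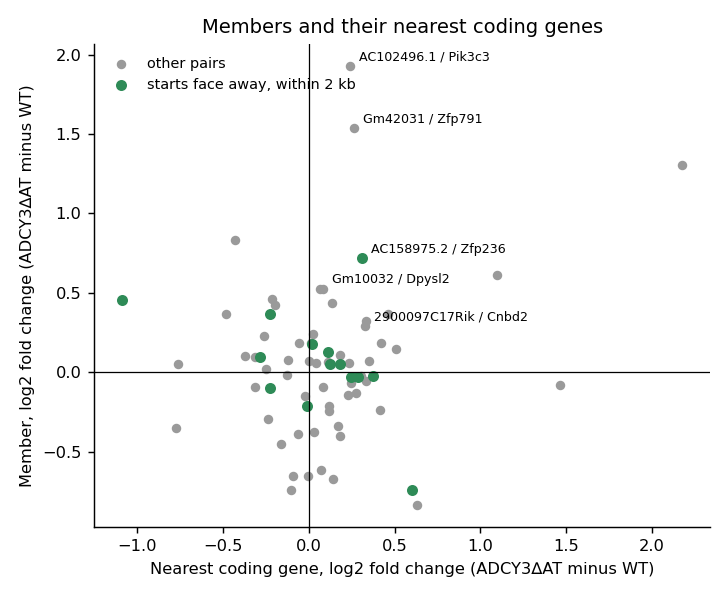
Log2 fold change (ADCY3∆AT minus WT) of the nearest coding gene (horizontal) against that of the member (vertical) in 71 pairs, with the 14 pairs whose starts face away within 2 kb in green. The 5 called members sit at 0.08 to 0.33 on the horizontal axis, and Gm11827 with Trp53inp1 stands at the right.

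Beside the members, 253 lincRNAs with a lower mean count were tested, and 3 were called (1.19%): B230208H11Rik (-1.17) and A530010L16Rik (-1.53) were lower in ADCY3∆AT and Gm49123 (3.85) higher. Gm49123 had 21, 19 and 14 counts in ADCY3∆AT and 3, 0 and 0 in WT. Among other classes with a mean count of at least 50, 4 of 94 antisense genes, 4 of 82 processed transcripts and 553 of 10257 coding genes (5.39%) were called. At the edge of the rule, 5033430I15Rik (mean count 51.5, log2 fold change -0.74) and 2310001H17Rik (51.7, 0.32) lay just inside and Gm16973 (49.0, -0.11) and Gm45250 (49.0, 0.38) just outside.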

How the data were processed

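Polyadenylated RNA of brown adipose tissue was sequenced in 6 libraries, 3 ADCY3∆AT and 3 WT. The deposited values are estimated counts, 1 row per gene, with no further scaling by the authors. GRCm38, Salmon, StringTie and edgeR appear in the submitters' processing notes without versions or roles. Of the values above 0, 38.0% were whole (tolerance 5e-04). The labels do not say whether strand was kept. The members and all gene lists were chosen with earlier results of these data known.

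GENCODE M21 gave types and symbols for 54131 rows. Estimated counts were rounded and kept by filterByExpr (minimum count 10, minimum total 15), which left 14332 genes. With TMM scaling, edgeR 4.0.16 in R 4.3.3 (quasi-likelihood F test) compared ADCY3∆AT with WT over all 6 libraries without covariates, with Benjamini-Hochberg adjustment and a threshold of 0.05. Standard errors of log2 fold changes came from the F statistic. The two-sided exact permutation test used log2(CPM + 0.5) over the 10 divisions of the libraries. A count of 0 allows up to 3 counts, for counting error only. Alternatives included DESeq2 1.42.0 and limma 3.58.1 voom. The fit was tested on simulated data. No pair of libraries within a genotype matched within sampling noise (chi-square per gene 6.19 to 26.9). Shared words are 31-mers of GENCODE transcripts on either strand.

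Named are called members, the 12 highest in CPM per kb, up to 4 members a list, the 4 lincRNAs at the count edge, nearest coding genes of called members, called paraspeckle proteins and the Adcy3 rows. Other genes were named after their values were seen.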

Additional observations from a re-analysis of the deposited data

How the results depend on the processing

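The 5 called members, all higher in ADCY3∆AT, became 3 and 3 higher with upper-quartile factors, which moved the median log2 fold change of all genes to -0.05. DESeq2's Wald test called 9, 2 of them lower (4930533N22Rik and Gm30918), and 993 of all genes against 616 in the main fit. Without a filter on low counts 18 were called, 14 higher and 4 lower, and 1951 of all genes. At an adjusted p under 0.10 there were 11, 8 higher and 3 lower, and 1375 of all genes. In each of these settings more genes were thus called over the whole table too. Without members that share at least 50% of their words, chosen after seeing the data, 2 were called, and 2 were higher. With a mean count of at least 20 as the rule, 1 was lower. Leaving out any 1 of the 6 libraries gave 2 to 3 called, 2 to 3 higher. The causes were not tested. DESeq2 size factors, library size alone, limma-voom, robust quasi-likelihood and a CPM filter gave counts within 1.5 times the count above.

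Same-numbered libraries deviated with correlations of 0.00, -0.01 and -0.05, so the numbers do not pair them. With the replicate number as a block, 6 members were called, without 2900097C17Rik and with Gm11827 and Gm29408 added, and 324 genes in all against 616 without it.

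Signs turned only among small values that were not called in any of the fits that turned them. Neat1 was 0.0075 without a filter and ran from -0.15 to 0.14 over the fits without 1 library. Snhg12 and 1700020I14Rik were -0.019 and -0.0062 with upper-quartile factors. Over the fits without 1 library Snhg12 ran from -0.16 to 0.13, 1700020I14Rik from -0.0074 to 0.077, AC153155.2 from -0.32 to 0.051, Snhg20 from -0.24 to 0.071, Snhg6 from -0.028 to 0.15, Gm16973 from -0.22 to 0.0099 and Adcy3 from -0.20 to 0.10. With 3 libraries a genotype and median variation near 13% between libraries, small differences in lowly counted members could fall below detection.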
